A study of Mus musculus with 10 samples.

Results

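Amino acids enter and leave cells through carrier proteins of several solute carrier (Slc) families, and this account follows the genes of families 1, 3, 6, 7, 36, 38 and 43 in a mouse blood progenitor line. A gene was taken when its RefSeq symbol began with Slc1a, Slc3a, Slc6a, Slc7a, Slc36a, Slc38a or Slc43a followed by a number. Of 67 such symbols in the RefSeq table, 62 were on the array, through 79 probes, out of 20660 named genes in all. The symbols on no named probe were Slc36a1os, Slc36a3os, Slc6a16, Slc6a19os and Slc6a5. Each gene is represented by its brightest probe.

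Gene expression was measured on 1-colour Agilent arrays in EML-C1 cells, a single mouse line with erythroid and myeloid potential. The 10 arrays comprised 1 of untreated cells at day 0 and 3 for each of 3 treatments. Those 3 were sorted Sca1-low cells and sorted Sca1-high cells, both from day 3, and day 6 cells, whose labels mention no Sca1 sort. Erythropoietin (EPO) was given at 10 ng/ml. The IL-3/GM-CSF arm received IL-3 at 10 ng/ml with all-trans retinoic acid at 10 µM, and GM-CSF at 10 ng/ml joined after day 3, so its day 3 arrays had seen IL-3 and retinoic acid alone. The combined arm received both sets of factors. A second set of arrays that the series design mentions was not analysed here, so each condition is 1 array, which may be 1 culture, and a difference between any 2 arrays has no replicate check.

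Levels are log2 processed intensities relative to the 75th percentile of their array, so 0 is the intensity of that percentile and a step of 1 is a 2-fold change. The extraction software marks whether a probe is well above background, and below that mark a value is only a bound. Levels are set side by side for 1 gene across arrays and never between genes, because probes differ in brightness. Values of the treatments are listed in the order EPO, IL-3/GM-CSF, combined throughout.

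Many family 38 carriers, and Slc1a4 and Slc1a5 of family 1, move neutral amino acids, while the other family 1 members carry glutamate and aspartate. Several light chains of family 7 form exchangers with the heavy chain Slc3a2. Red cell precursors take up glycine as a building block of haem, and dividing cells depend on imported leucine, which is sensed by the mTORC1 kinase complex. The symbol rule also takes in relatives that carry other molecules. These include Slc6a2, Slc6a3 and Slc6a4 for monoamines, Slc6a6 for taurine, Slc6a8 for creatine, Slc6a12 for betaine and GABA, Slc6a13 for GABA and Slc43a3 for nucleobases. It takes in Slc7a6os as well, a gene next to Slc7a6 that is not a carrier.

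The 6 promoters shown here belong to genes that the results turn on. They are those of the 5 genes called different between the Sca1 fractions and that of Slc7a11, which was chosen after its values were seen. Each is the 250 bases before 1 transcription start of the gene from RefSeq (GRCm38.p6), written 5′ to 3′ along the gene. A gene can have other starts, and those used for Slc43a1, Slc7a11 and Slc36a3 lie inside the annotated gene. Capitals mark the letters of any searched motif.

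Slc38a5, chrX:8271131-8271380, forward strand: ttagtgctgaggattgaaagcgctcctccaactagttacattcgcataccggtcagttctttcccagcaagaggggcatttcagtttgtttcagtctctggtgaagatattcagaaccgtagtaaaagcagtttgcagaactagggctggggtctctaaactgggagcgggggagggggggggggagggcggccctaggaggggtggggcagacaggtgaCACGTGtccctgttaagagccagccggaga

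Slc6a20a, chr9:123678833-123679082, reverse strand: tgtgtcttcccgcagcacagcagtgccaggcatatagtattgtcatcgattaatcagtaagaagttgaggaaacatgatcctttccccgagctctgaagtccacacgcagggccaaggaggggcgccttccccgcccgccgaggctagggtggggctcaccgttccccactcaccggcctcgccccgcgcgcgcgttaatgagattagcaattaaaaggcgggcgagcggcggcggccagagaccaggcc

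Slc43a1, chr2:84840073-84840322, forward strand: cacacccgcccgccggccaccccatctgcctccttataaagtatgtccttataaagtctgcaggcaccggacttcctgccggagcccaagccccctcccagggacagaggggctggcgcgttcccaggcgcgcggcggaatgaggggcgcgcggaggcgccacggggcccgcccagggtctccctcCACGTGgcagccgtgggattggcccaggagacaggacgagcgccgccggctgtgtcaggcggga

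Slc6a4, chr11:76998347-76998596, forward strand: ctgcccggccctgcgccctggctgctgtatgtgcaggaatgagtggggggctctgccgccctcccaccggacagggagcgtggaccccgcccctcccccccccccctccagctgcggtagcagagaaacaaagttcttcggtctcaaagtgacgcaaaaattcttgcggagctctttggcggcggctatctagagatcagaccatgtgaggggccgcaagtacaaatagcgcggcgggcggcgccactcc

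Slc36a3, chr11:55151709-55151958, reverse strand: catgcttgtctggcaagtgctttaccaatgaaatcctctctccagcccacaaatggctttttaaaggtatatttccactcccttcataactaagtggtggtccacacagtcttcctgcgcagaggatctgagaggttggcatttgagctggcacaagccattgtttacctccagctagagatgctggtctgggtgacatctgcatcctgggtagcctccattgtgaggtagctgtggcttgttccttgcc

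Slc7a11, chr3:50443614-50443863, reverse strand: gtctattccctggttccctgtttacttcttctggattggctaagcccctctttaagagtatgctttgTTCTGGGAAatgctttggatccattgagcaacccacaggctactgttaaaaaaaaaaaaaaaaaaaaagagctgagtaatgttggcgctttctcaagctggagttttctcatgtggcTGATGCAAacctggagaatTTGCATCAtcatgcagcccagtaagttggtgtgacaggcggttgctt

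The searched motifs were the GATA sites AGATAA and TGATAA, the amino acid response element TGATGNAA, the GAS element TTCNNNGAA bound by STAT factors, the E-box CACGTG and the KLF site CCACACCC, on both strands. The E-box lay 30 bases before the start of Slc38a5 and 64 bases before that of Slc43a1. No searched motif was found in the windows of Slc6a20a, Slc6a4 and Slc36a3. The Slc7a11 window held the amino acid response element 66 and, on the other strand, 47 bases before the start, and a GAS element at 183. Over all 32851 promoters of the same length, 6.02% held the E-box, 3.45% the amino acid response element, 7.02% the GAS element, 9.99% AGATAA, 7.94% TGATAA and 3.20% the KLF site. Promoters matched 26 of the tested carrier genes, in 41 windows, of which 6 held the E-box, 3 the amino acid response element, 3 the GAS element, 2 AGATAA, 4 TGATAA and 1 the KLF site. A match describes the letters alone.

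The cells matched their labels in the genes that mark the sort. Ly6a, which encodes Sca1, stood at -4.25, -3.43 and -2.80 in the Sca1-low fractions and at 4.76, 2.64 and 1.89 in the Sca1-high fractions. Progenitor markers were well above background for 6 to 8 of 8 genes on every array. Intensities at the 75th percentile ran from 309 in EPO Sca1-low cells to 736 in untreated cells, and no probe was saturated. The arrays lay on 3 slides: untreated, EPO day 6 and combined day 6 on slide 1, all EPO and IL-3/GM-CSF day 3 arrays on slide 2, and the rest on slide 3. Each Sca1 pair thus shared a slide.

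Of the 62 carrier genes, 25 were well above background on all 10 arrays, 11 on 2 to 9 arrays, 12 on 1 array and 14 on none. The 36 genes in the first 2 classes were tested, beside 14204 genes in all. By family, 4 of 7 Slc1 genes, 1 of 2 Slc3, 8 of 19 Slc6, 8 of 16 Slc7, 3 of 4 Slc36, 9 of 11 Slc38 and 3 of 3 Slc43 genes were tested. The genes on no array included the glutamate carrier Slc1a1, the dopamine and noradrenaline carriers Slc6a3 and Slc6a2, the intestinal carrier Slc6a19 and the serine and glycine carrier Slc7a10. The number of carrier genes well above background was lowest on EPO day 6, at 28, and highest on IL-3/GM-CSF Sca1-high, at 35. The same arrays were lowest and highest for all genes tested, with 78.4% and 94.9% of them well above background.

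**Figure D1:**
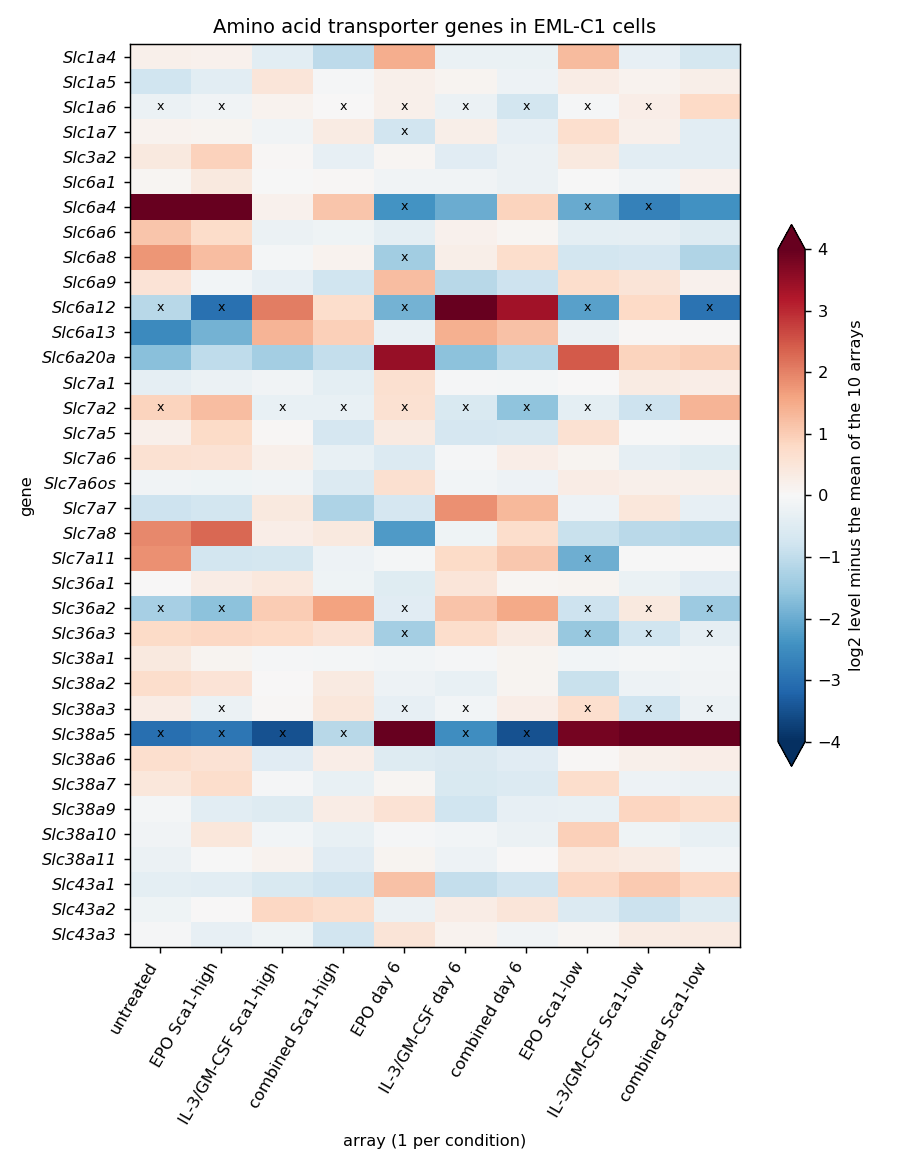
Log2 level of each of the 36 tested carrier genes (vertical axis) on each of the 10 arrays (horizontal axis), minus that gene's mean over the 10 arrays; a cross marks a value not well above background. Slc38a5 is high on the 3 Sca1-low arrays and on EPO day 6, and Slc6a4 is high in untreated and EPO Sca1-high cells.

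Sca1-low and Sca1-high cells were compared over the 6 day 3 arrays, as the mean of 3 differences within a treatment. The additive limma model with treatment as a block left 2 residual degrees of freedom, and a gene was called at a Benjamini-Hochberg adjusted p under 0.05 over all genes. Called higher in Sca1-low cells were Slc38a5, Slc6a20a and Slc43a1, and called lower were Slc6a4 and Slc36a3. That is 5 of 36 carrier genes (13.9%), beside 11.1% of all genes tested, so the share lies near the background. In the higher direction 3 of 36 stand beside 4.09% of all genes, and in the lower direction 2 of 36 stand beside 6.98%. Lack of overlap between the fractions is stated below for single genes, and its share over all genes is not given. Because whole fractions were lysed, fewer cells of a type and less RNA per cell cannot be told apart.

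Slc38a5 (SNAT5) is a sodium-coupled carrier of glutamine, histidine, serine and glycine. Its level was -6.81 in untreated cells, 0.05, 0.17 and 0.19 in Sca1-low cells, -6.66, -7.27 and -4.90 in Sca1-high cells, and 0.93, -6.25 and -7.28 at day 6. Only the Sca1-low arrays and EPO day 6 were well above background. Slc38a5 thus passed the filter of 2 or more such arrays only through the fraction where it was high. The fractions did not overlap, but every Sca1-high value was dim, and the p-value rests on those dim values. The measured difference was 6.42 (SE 0.49, n = 3 pairs, limma adjusted p = 0.00641). Since the Sca1-high value is a bound, Sca1-low cells were at least 45.3-fold higher, each Sca1-high array being set at its background limit or its own value where that was greater. Taken pair by pair, the difference was at least 35.6-fold, 76.6-fold and 34.1-fold.

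Slc6a20a, a carrier of proline and other imino acids, was well above background on all 10 arrays. It stood at -1.33 in untreated cells, 2.79, 1.23 and 1.32 in Sca1-low cells, -0.68, -1.01 and -0.61 in Sca1-high cells, and 3.84, -1.30 and -0.80 at day 6. Every Sca1-low value exceeded every Sca1-high value, by a mean of 2.55 (SE 0.36, n = 3 pairs, limma adjusted p = 0.0211). The neighbouring and closely related Slc6a20b was not well above background on any array.

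Slc43a1 (LAT3), which moves leucine and other branched neutral amino acids without sodium, measured 1.60 in untreated cells. Sca1-low cells gave 2.81, 3.04 and 2.83, Sca1-high cells 1.56, 1.38 and 1.22, and day 6 cells 3.14, 1.02 and 1.22. The fractions did not overlap, and the difference was 1.50 (SE 0.21, n = 3 pairs, limma adjusted p = 0.0202). The plot of levels by array shows Slc38a5, Slc6a20a and Slc43a1 with the same 4 arrays highest, the 3 Sca1-low arrays and EPO day 6.

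**Figure D2:**
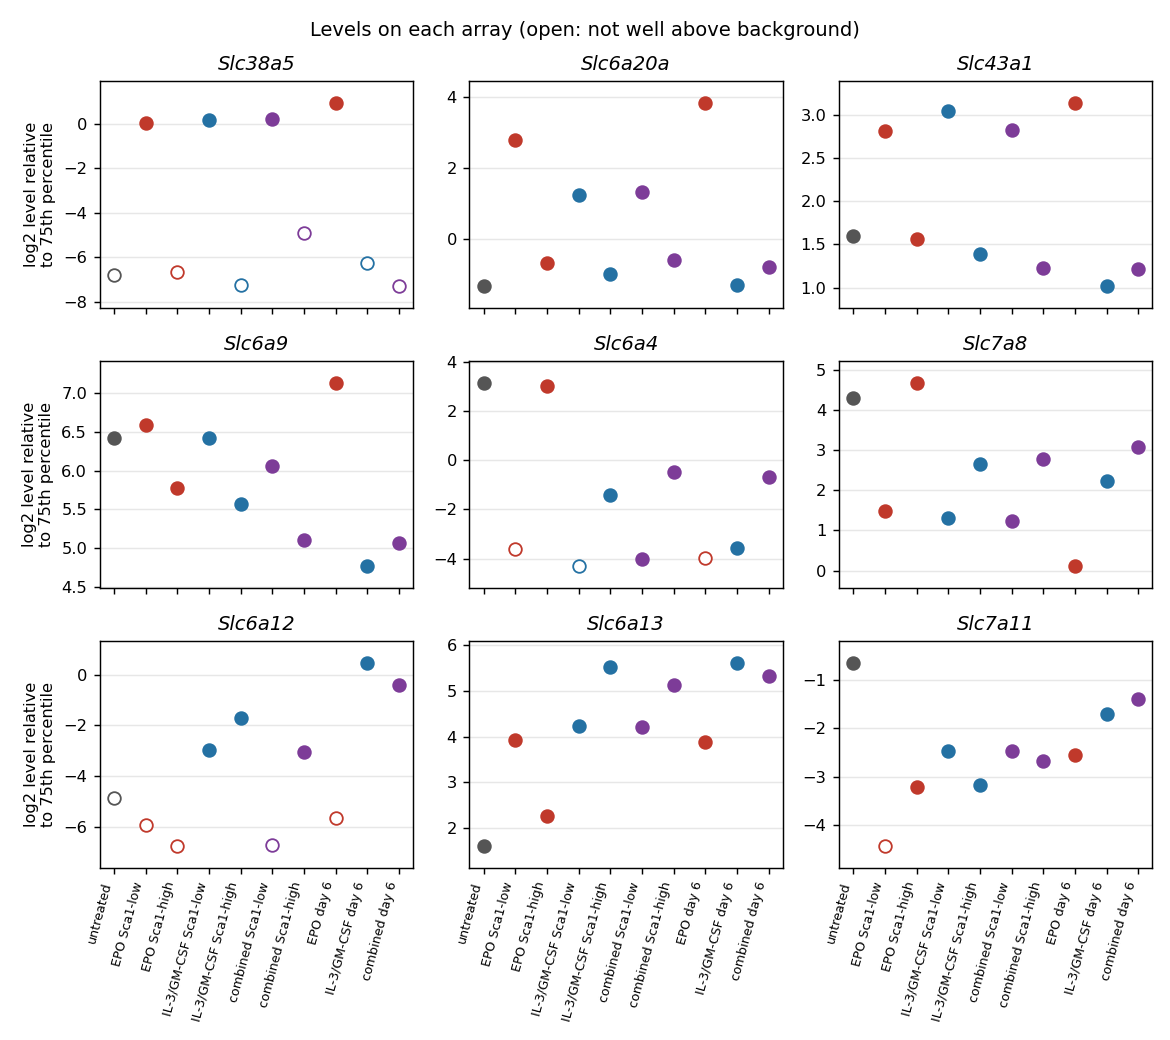
Log2 level relative to the array's 75th percentile (vertical axis, own scale per panel) of 9 carrier genes on each of the 10 arrays (horizontal axis), 1 point per array; grey is untreated, red EPO, blue IL-3/GM-CSF and purple combined, and open points were not well above background. Slc38a5 lies at 0.05 or more on 4 arrays and at -4.90 or less on the other 6, and untreated cells have the highest value of Slc7a11, -0.65.

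Slc6a4, the serotonin carrier, ran the other way. Its level was 3.14 in untreated cells, -3.60, -4.29 and -4.00 in Sca1-low cells, 3.00, -1.40 and -0.46 in Sca1-high cells, and -3.96, -3.56 and -0.68 at day 6. The EPO Sca1-low, IL-3/GM-CSF Sca1-low and EPO day 6 values were not well above background, and the fractions did not overlap. The difference was -4.34 (SE 0.77, n = 3 pairs, limma adjusted p = 0.0354). Within treatments EPO Sca1-low cells were at least 96.7-fold lower and IL-3/GM-CSF Sca1-low cells at least 7.03-fold lower, and the combined pair differed by -3.55. The Slc6a4 call was lost without a filter on dim probes (limma adjusted p = 0.056), without the combined arrays (0.0629) and with normexp and quantile normalization, where the difference was -3.04 (0.0518).

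Slc36a3, a relative of the proton-coupled carriers Slc36a1 and Slc36a2, was dim throughout. It was not well above background on any Sca1-low array, where it read -5.70, -5.00 and -4.54, and stood at -3.37, -3.41 and -3.62 in Sca1-high cells, -3.43 in untreated cells, and -5.55, -3.50 and -3.84 at day 6. The difference of -1.62 (SE 0.33, n = 3 pairs, limma adjusted p = 0.0487) corresponds to at least 1.96-fold lower. A second probe of the gene correlated with it at 0.27 over the 10 arrays, and with the mean of both probes the difference was -0.85 and no longer called (limma adjusted p = 0.0606). With normexp and quantile normalization it was -0.52 (0.107), and the call was also lost with outlier spots kept (0.0513) and without a filter on dim probes (0.0767).

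Leaving out 1 pair left 1 residual degree of freedom. Without the IL-3/GM-CSF pair no carrier gene was called, nor any other gene. The differences were then 5.90 for Slc38a5 (limma adjusted p = 0.0582), 2.71 for Slc6a20a, 1.43 for Slc43a1, -5.07 for Slc6a4 and -1.63 for Slc36a3. Without the combined pair 2 carrier genes were called, Slc38a5 and Slc6a20a, with 464 of 14204 genes in all. Without the EPO pair 8 carrier genes and 2305 genes in all were called. In the model of all 10 arrays no carrier gene and no other gene was called. The main model's error holds how the fractions differ between treatments, and that of this larger model also holds how day 6 cells do. All 5 genes kept their direction in each alternative run. Most of these runs could not turn it, since they reuse the same values or drop 1 of several pairs with the same sign.

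Several carriers of glycine, leucine and creatine lay just past the threshold. Slc6a9 (GlyT1), the glycine carrier of red cell precursors, stood at 6.59, 6.42 and 6.06 in Sca1-low cells against 5.77, 5.57 and 5.10 in Sca1-high cells, and at 6.42 in untreated cells. Its difference was 0.87 (SE 0.20, limma adjusted p = 0.061), and day 6 cells gave 7.13, 4.77 and 5.06. Slc7a8 (LAT2), a light chain that exchanges neutral amino acids, stood at 1.50, 1.32 and 1.24 against 4.68, 2.67 and 2.77, with 4.31 in untreated cells and 0.12, 2.24 and 3.09 at day 6. Its difference of -2.02 (SE 0.43) had an adjusted p of 0.0531. The fractions of Slc6a9 and Slc7a8 did not overlap. Both genes were called when only genes well above background on all 10 arrays were tested (limma adjusted p = 0.0201 and 0.00617). That run called 2425 genes in all, with 5 of 25 carrier genes.

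The creatine carrier Slc6a8 differed by -1.31 (limma adjusted p = 0.0731). Slc43a2 (LAT4), the relative of Slc43a1 that also carries leucine, differed by -1.17 (limma adjusted p = 0.075), with 1.59, 1.27 and 1.61 in Sca1-low cells and 2.15, 2.98 and 2.84 in Sca1-high cells. Slc43a1 and Slc43a2 thus had opposite signs in all 3 treatments, although Slc43a2 was not called in the main model. Slc43a2 was called when only genes well above background on all 10 arrays were tested (limma adjusted p = 0.0169). With normexp and quantile normalization it was called too (limma adjusted p = 0.0308). The fractions of Slc43a2 and Slc6a8 did not overlap either. Slc43a3 differed by 0.68 (adjusted p = 0.146).

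The other carriers of dividing cells moved less between the fractions. Slc3a2, the heavy chain shared by several family 7 exchangers, gave differences of -0.53, -0.46 and -0.11. Slc7a5 (LAT1), its leucine-carrying partner, gave -0.16, -0.07 and 0.71. Slc7a1 (CAT1), which carries arginine and lysine, gave 0.25, 0.46 and 0.68. The glutamine carrier Slc1a5 (ASCT2) gave 0.73, -0.36 and 0.28, and its relative Slc1a4 (ASCT1), a carrier of serine, alanine and threonine, gave 1.11, 0.09 and 0.34. Slc38a2 (SNAT2), an amino acid regulated glutamine and alanine carrier, gave -1.42, -0.21 and -0.49, and Slc38a9, a lysosomal arginine sensor upstream of mTORC1, gave 0.14, 1.39 and 0.42. Slc38a1 (SNAT1), a glutamine carrier, gave -0.23, -0.04 and -0.02, Slc7a6 (y+LAT2) -0.49, -0.56 and -0.20, and the lysosomal proton-coupled carrier Slc36a1 -0.21, -0.69 and -0.29. Under another normalization the sign turned for Slc7a1 in the EPO pair, Slc1a5 in the combined pair and Slc38a1 in the IL-3/GM-CSF pair. A second Slc7a5 probe, well above background on all 10 arrays, had the opposite sign in every pair. It read 0.30, -0.72 and -0.40 in Sca1-low cells and -0.37, -0.79 and 0.17 in Sca1-high cells. A second Slc36a1 probe turned the sign in the EPO and combined pairs. So did another probe of Slc38a9, and another of Slc38a1 turned it in all but the EPO pair. The remaining probes of Slc38a1, Slc38a9 and Slc1a5 kept the signs of the chosen ones. None of these carriers was called, which does not show that the fractions were alike.

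Over the 36 genes the median difference was -0.06, beside 0.17 for all genes. The same sign in all 3 treatments was seen for 12 carrier genes with higher and 11 with lower values in Sca1-low cells, 63.9% of them, beside 55.0% of all genes. An unadjusted p under 0.05 was reached by 10 of 36, beside 31.0% of all genes.

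**Figure D3:**
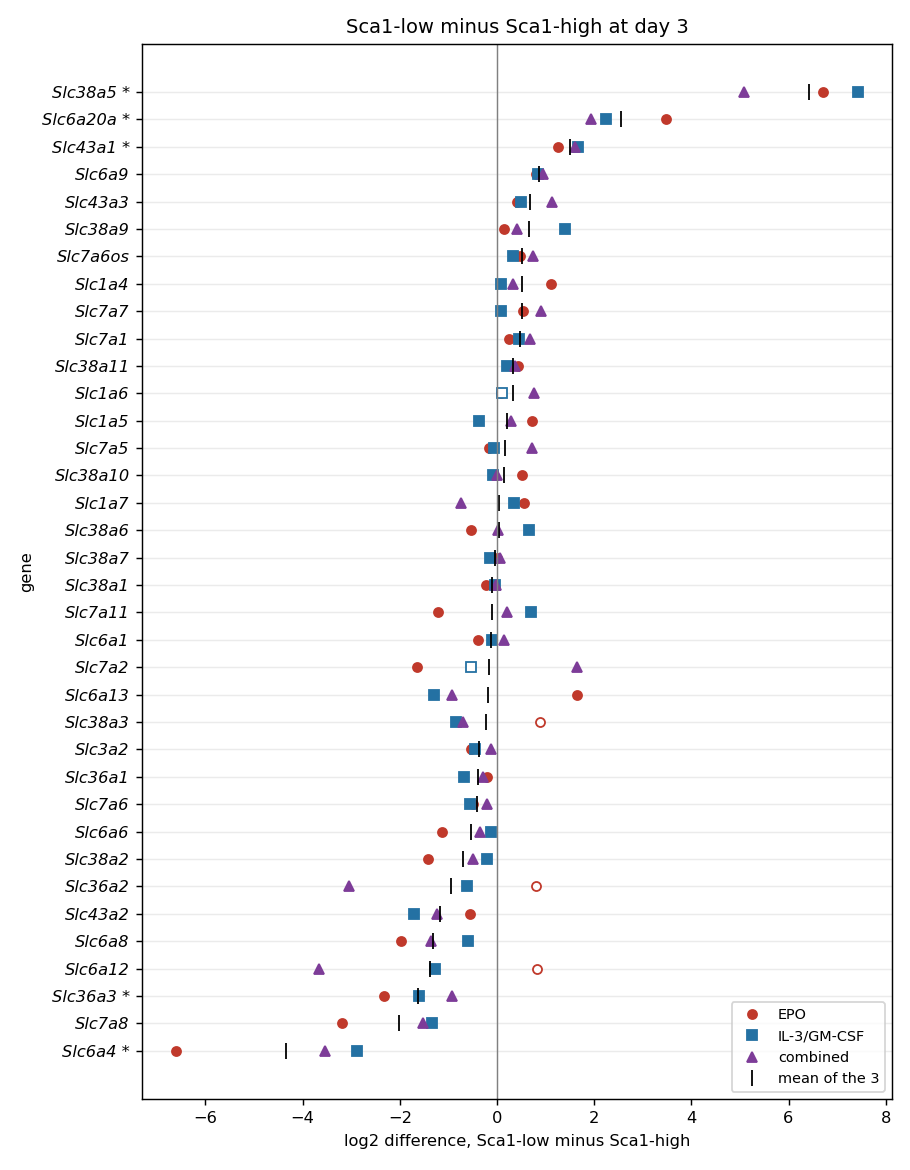
Log2 difference between Sca1-low and Sca1-high cells at day 3 (horizontal axis) for each tested carrier gene (vertical axis), 1 point per treatment, with a bar at their mean; open points were not well above background on the higher side, and an asterisk marks a call by limma. Slc38a5 lies farthest to the right, with a mean of 6.42, and Slc6a4 farthest to the left, with -4.34.

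Lineage markers differed between the same fractions. Erythroid markers were called higher in the Sca1-low fraction for 10 of 11 genes, and their summed level was 9.83 to 11.06 there against 8.47 to 8.90 in Sca1-high cells. Called lower were 4 of 8 mast cell markers (summed level 3.70 to 5.42 against 7.33 to 9.36), 4 of 8 progenitor markers (5.65 to 5.98 against 6.92 to 7.94), 2 of 10 granulocyte markers (6.72 to 8.07 against 8.50 to 8.90) and 1 of 5 monocyte and macrophage markers (4.50 to 6.99 against 5.89 to 7.96). Also called lower were 2 of 6 megakaryocyte markers (5.04 to 6.63 against 4.79 to 6.20), 2 of 3 tested B cell markers (-0.80 to -0.69 against 0.74 to 1.40) and 1 of 4 tested T cell markers (2.89 to 4.34 against 3.87 to 4.28). As background to these counts, 4.09% of all genes tested had a call upward in the Sca1-low fraction and 6.98% a call downward. No marker list's share was tested against that background. The summed level adds the intensities of a list before taking the log. The part of these lineage differences in the carrier values was not tested.

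At day 6, Slc38a5, Slc6a20a, Slc6a9 and Slc43a1 had their highest values on the EPO array. EPO day 6 minus IL-3/GM-CSF day 6 was at least 36.6-fold for Slc38a5, 5.14 for Slc6a20a, 2.36 for Slc6a9 and 2.12 for Slc43a1. Against the combined array, EPO was at least 78.7-fold higher for Slc38a5, and the combined minus EPO values were -4.64 for Slc6a20a, -2.07 for Slc6a9 and -1.92 for Slc43a1. Each is a difference between single arrays, with no test. Erythroid markers had a summed level of 11.02 on EPO day 6, 6.79 on IL-3/GM-CSF day 6 and 8.35 on combined day 6, and their part in these values was not tested.

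The treatments were then compared as means over Sca1-low, Sca1-high and day 6 cells, in a limma model of all 10 arrays with 4 residual degrees of freedom. No carrier gene was called between EPO and IL-3/GM-CSF (background 0.00704% of all genes, 1 gene), combined and IL-3/GM-CSF (0%) or combined and EPO (0.00704%). Unadjusted p-values under 0.05 were reached by 10, 0 and 8 of the 36 genes, beside 18.9%, 1.84% and 23.6% of all genes. With slide as a block, 3 carrier genes were called for combined minus EPO, Slc38a5, Slc6a20a and Slc6a9, with 865 genes in all. Combined and EPO arrays shared slide 1 alone, through their day 6 arrays. The values of that fit, -8.21, -4.64 and -2.07, are those of this single pair of day 6 arrays, which has no replicate check. On single arrays 6, 9 and 15 carrier genes were at least 2-fold apart between EPO and IL-3/GM-CSF (Sca1-low first, then Sca1-high, then day 6), beside 20.6%, 13.5% and 33.4% of all genes. The error of this model holds the way a treatment acts differently in each population, and for Slc38a5 the EPO minus IL-3/GM-CSF value of 2.56 had an SE of 1.85.

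Slc6a12 and Slc6a13 are neighbours on chromosome 6, both carrying GABA and the first also betaine. Slc6a12 was not well above background in untreated cells (-4.87), on any EPO array (-5.92 for Sca1-low, -6.74 for Sca1-high and -5.65 for day 6) or in combined Sca1-low cells (-6.70). It reached -2.96, -1.69 and 0.46 in the same order under IL-3/GM-CSF, and -3.05 and -0.40 in combined Sca1-high and day 6 cells. EPO minus IL-3/GM-CSF was -4.70 (SE 1.04, limma adjusted p = 0.181), at least 9.74-fold lower, with the same sign in 3 of 3 populations. Without the EPO Sca1-low array the difference was -6.02 and called (limma adjusted p = 0.0469), with 131 genes called in all. On single arrays IL-3/GM-CSF day 6 was at least 27.7-fold above EPO day 6 and at least 40.2-fold above untreated cells.

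Slc6a13 was measured on every array. Untreated cells gave 1.62, Sca1-low cells 3.92, 4.22 and 4.20, Sca1-high cells 2.28, 5.52 and 5.12, and day 6 cells 3.88, 5.60 and 5.33. All 9 treated arrays lay above the untreated one. EPO minus IL-3/GM-CSF was -1.76 (SE 0.55, limma adjusted p = 0.217), with -0.30 for the Sca1-low pair, -3.24 for the Sca1-high pair and -1.73 for the day 6 pair. The difference between the fractions had opposite signs, 1.64 under EPO and -1.30 under IL-3/GM-CSF.

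Slc7a7 (y+LAT1), which exchanges basic for neutral amino acids and is known in macrophages, was highest on the 2 day 6 arrays that had received GM-CSF, at 0.15 and -0.36. The other 8 arrays ran from -2.89 to -1.20, with -2.33 on EPO day 6 and -2.49 in untreated cells. EPO minus IL-3/GM-CSF was -1.42 (SE 0.49, limma adjusted p = 0.23). Monocyte and macrophage markers had summed levels of 7.64, 7.20 and 4.14 on IL-3/GM-CSF, combined and EPO day 6 arrays, and granulocyte markers of 11.18, 10.83 and 6.70. Their part in the Slc7a7 values was not tested.

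Slc1a4, Slc7a5, Slc3a2 and Slc38a7, a lysosomal glutamine carrier, had higher values under EPO than under IL-3/GM-CSF in 3 of 3 populations. The differences were 1.30 (SE 0.28, adjusted p = 0.177), 0.80 (SE 0.25), 0.76 and 0.77 in limma, none called. Slc1a4 stood at 3.77, 2.66 and 3.96 on the EPO arrays and at 2.17, 2.08 and 2.23 on the IL-3/GM-CSF arrays (Sca1-low, Sca1-high, day 6), with 2.70 in untreated cells. Combined minus EPO was -1.64 for Slc1a4 (SE 0.28, limma adjusted p = 0.141), -0.84 for Slc38a7 and -0.80 for Slc3a2. A second probe of Slc7a5 correlated with the chosen one at only 0.16. On that probe the day 6 value was lower under EPO, -0.60, than under IL-3/GM-CSF, -0.43. Other carriers, among them Slc6a9, Slc6a20a and Slc38a10, were also higher under EPO in 3 of 3 populations. The share of all genes with such a pattern is not given.

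**Figure D4:**
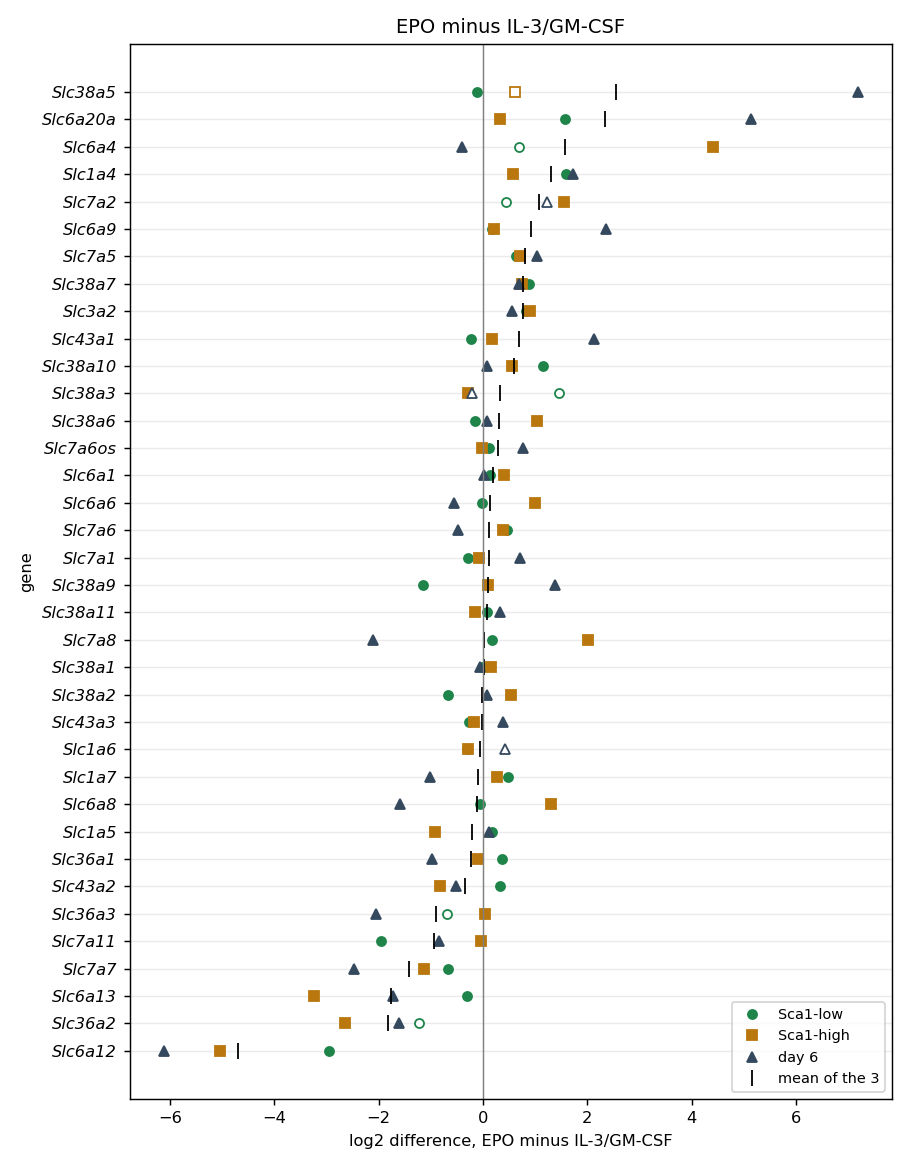
Log2 difference between EPO and IL-3/GM-CSF arrays (horizontal axis) for each tested carrier gene (vertical axis), 1 point per population, with a bar at their mean; open points were not well above background on the higher side. No gene was called; Slc6a12 has the lowest mean, -4.70, with all 3 populations below 0.

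Slc36a2 (PAT2), a proton-coupled carrier of glycine, alanine and proline, was well above background on 4 arrays, at -4.00 and -3.41 in IL-3/GM-CSF and combined Sca1-high cells and -3.86 and -3.48 in the same arms at day 6. Against untreated cells those arrays were at least 2.39-fold, 3.59-fold, 2.63-fold and 3.42-fold higher. No EPO array, Sca1-low array or untreated array was well above background for it. Slc38a10, a carrier of glutamine and other amino acids, was highest in EPO Sca1-low cells, at 1.35, with 0.84 in EPO Sca1-high cells and 0.10 to 0.35 on the other 8 arrays. Of the remaining carriers at the extremes of a pair of arrays, Slc1a6 was well above background on 2 arrays, Slc1a7 ran from -3.79 to -2.70 on the 9 arrays where it was, and Slc38a6 from -2.98 to -1.71 on all 10.

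The combined arrays lay close to the IL-3/GM-CSF arrays. By measured values on single arrays, 2 of 36 carrier genes were at least 2-fold apart in Sca1-low cells (background 6.52% of all genes), 2 in Sca1-high cells (10.2%) and 1 at day 6 (7.39%). The gene at day 6 was Slc6a4, with -0.68 in combined and -3.56 in IL-3/GM-CSF cells. In Sca1-high cells the genes were Slc6a12 and Slc7a7, with combined minus IL-3/GM-CSF values of -1.35 and -1.61. In Sca1-low cells they were Slc6a12, at least 2.86-fold lower in combined cells, and Slc7a2, which was well above background in the combined cells alone of that pair and whose difference is not bounded at 2-fold. Against EPO the combined arrays differed 2-fold in 7 (22%), 10 (18.2%) and 14 (29.9%) of 36 carrier genes in the same populations. With dim values raised to their array's background limit, these counts were 1 (4.61% of all genes), 2 (9.19%) and 1 (5.39%) against IL-3/GM-CSF. Against EPO they were 6 (20.5%), 9 (16.9%) and 12 (27.4%).

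Each treatment was also set against untreated cells, and these 3 comparisons share 1 control array. No carrier gene, and no gene at all, was called for EPO (0%), IL-3/GM-CSF (0%) or the combined treatment (0%) by limma. Unadjusted p-values under 0.05 were reached by 4, 8 and 5 carrier genes, beside 10.5%, 6.76% and 4.75% of all genes. The treated arrays lay partly on other slides than the untreated one, and with slide as a block the EPO comparison called 5 carrier genes and 1041 genes in all. That fit called 1 carrier gene among 293 in the IL-3/GM-CSF comparison and none among 63 in the combined one. Slide largely went along with treatment and day, so the fit cannot cleanly separate them.

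Slc7a11 (xCT) imports cystine for glutathione synthesis and is a known target of the amino acid response. It stood at -0.65 in untreated cells, -4.42, -2.47 and -2.46 in Sca1-low cells, -3.20, -3.16 and -2.66 in Sca1-high cells, and -2.55, -1.71 and -1.40 at day 6. All 9 treated arrays lay below the untreated one, and EPO Sca1-low was not well above background, at least 13.7-fold lower. Treatment minus untreated was -2.74 (SE 0.52), -1.80 and -1.53, with limma adjusted p of 0.461, 0.602 and 1.00. Day 6 minus day 3 was 1.18 (SE 0.32, limma adjusted p = 0.409).

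Slc6a4, Slc6a6 and Slc7a8 were likewise below the untreated value on most treated arrays. Slc6a4 minus untreated was -4.66, -6.23 and -4.86 (SE 1.68), with EPO Sca1-high, at 3.00, as the array closest to the untreated level. Slc6a6, the taurine carrier, read 3.71 in untreated cells and from 2.06 to 3.32 on the 9 treated arrays, and its differences were -1.14, -1.27 and -1.33 (SE 0.47). For Slc6a13 the same differences were 1.74, 3.49 and 3.26 (SE 0.78), none called by limma. Slc1a5 had values of 0.81, 1.03 and 0.78, with all 9 treated arrays, 3.63 to 4.56, above the untreated 3.27.

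EPO Sca1-high cells stood nearest to untreated cells. Only 1 of 36 carrier genes was at least 2-fold apart between these arrays, Slc7a11 at -2.55, beside 5.51% of all genes. In EPO Sca1-low cells it was 14 of 36 (36.3% of all genes), in EPO day 6 cells 14 (26.5%), and in the IL-3/GM-CSF arrays 13 (18.5%), 12 (16.2%) and 11 (19.5%) in the order Sca1-low, Sca1-high, day 6. The combined arrays gave 13 (22%), 10 (15.2%) and 10 (14.7%). Mast cell markers, summed, stood at 9.13 in untreated and 9.36 in EPO Sca1-high cells and between 3.46 and 8.08 elsewhere, and their part in these counts was not tested.

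**Figure D5:**
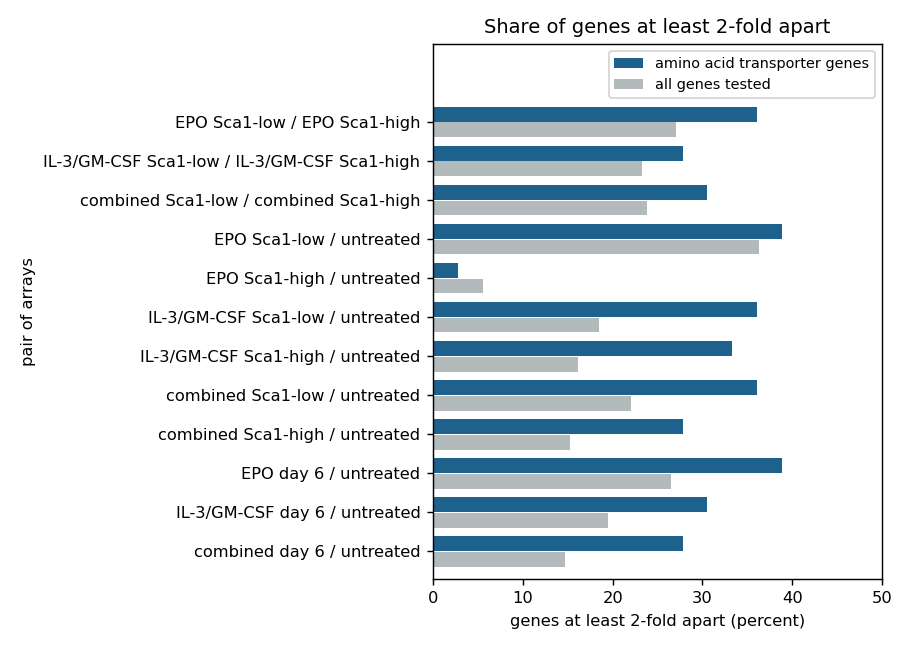
Percent of genes that differed 2-fold or more, with the brighter array well above background (horizontal axis), for the 3 pairs of Sca1 fractions and the 9 pairs of a treated with the untreated array (vertical axis); blue bars are the 36 tested carrier genes and grey bars all 14204 genes tested. Among these 12 pairs the carrier share is lowest for EPO Sca1-high against untreated cells, 2.78%, and highest, 38.9%, for EPO Sca1-low and EPO day 6 against untreated cells.

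Between the fractions the same count was 13 of 36 under EPO (27% of all genes), 10 for IL-3/GM-CSF (23.2%) and 11 for the combined arm (23.8%). All these counts take measured values, also where the dimmer side is only a bound. With such values raised to their array's background limit, the fractions gave 12 (25.8% of all genes), 9 (20.7%) and 10 (22.0%). Over all 27 pairs of arrays the total went from 247 to 231 differences. Day 6 minus day 3, fitted over the 3 treatments, gave no called carrier gene (0% of all genes) and 5 with an unadjusted p under 0.05 in limma, beside 9.63% of all genes. With slide as a block, which largely went along with treatment and day, 1 carrier gene, Slc38a5, and 655 genes in all were called. Slc6a12 had the largest value, 2.65 (SE 0.90, adjusted p = 0.446), followed by Slc7a11 at 1.18 and Slc7a7 at 1.09. Without the EPO day 6 array Slc38a5 (-3.82) and Slc7a7 (1.74) were called, with 789 genes in all. Single day 6 arrays differed 2-fold from their own treatment's Sca1-low array in 4 (EPO, 13.4% of all genes), 10 (IL-3/GM-CSF, 25.6%) and 14 (combined, 25.6%) carrier genes, and from its Sca1-high array in 14 (27.5%), 4 (13.8%) and 3 (12.4%). By this count the EPO day 6 array lay nearer to its Sca1-low array and the other day 6 arrays nearer to their Sca1-high arrays.

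Genes that work beside these carriers were counted from fixed lists. Of 8 tested mitochondrial amino acid carriers 1 was called higher in Sca1-low cells, Slc25a38, which brings glycine into mitochondria for haem, at 1.93 (SE 0.31, limma adjusted p = 0.0284). The others of that list were not called, and its median was -0.00. The background share of upward calls among all genes tested was 4.09%. Of 6 other amino acid and peptide transporters none was called (none at an unadjusted p under 0.05, median 0.24), and of 25 tested genes of amino acid sensing by mTORC1 none was called either (7 at an unadjusted p under 0.05, beside 31.0% of all genes, median 0.28). Of 5 glutathione synthesis genes 1 was called higher, beside the same 4.09% of all genes. It was Gclm, a subunit of glutamate-cysteine ligase, at 1.27 (SE 0.19, limma adjusted p = 0.0246).

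Of 18 tested genes of the amino acid response 3 were called between the fractions, 2 with higher and 1 with lower values in the Sca1-low fraction, beside 11.1% of all genes, and the list's median was 0.45. Asns, asparagine synthetase, differed by 1.66 (SE 0.22, limma adjusted p = 0.0171) and the stress-induced cofactor Nupr1 by 2.39 (SE 0.43, 0.0357). Cebpg, a partner of the factor Atf4, differed by -1.57 (SE 0.25, 0.0283). Against untreated cells, the list's median was 1.39 for EPO, 0.40 for IL-3/GM-CSF and 0.30 for the combined treatment, with 0 genes called and 10, 4 and 3 of 18 at an unadjusted p under 0.05 in limma, beside 10.5%, 6.76% and 4.75% of all genes. On the EPO Sca1-low array Trib3, Nupr1 and Asns stood at 5.83, 4.24 and 8.92, against 1.74, -1.36 and 6.67 in untreated cells. Slc7a11, a member of the same response, stood at -4.42 and -0.65 on those 2 arrays, in the opposite order. Cebpg (0.65 and 2.07) and Eif2ak4 (1.16 and 1.89) of the list ran that way too, and its other tested genes stood above untreated cells.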

How the data were processed

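Per the labels' protocols, RNA of EML-C1 cells was labelled with 1 dye and hybridised to Agilent arrays. The authors deposited spot intensities from Agilent Feature Extraction 11.0.1.1, named in the submitters' processing notes, and their deposited value table repeats the processed intensities. These are intensities and not counts.

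Of 62976 spots per array, 59305 were not controls. Spots with an outlier mark were set to missing, repeat spots were averaged, and log2 processed intensity was taken relative to the array's 75th percentile. RefSeq accessions named 27235 of 55681 probes through a GRCm38.p6 table. A gene entered the tests when 2 or more arrays had it well above background, in limma 3.58.1 (R 4.3.3) over all genes with Benjamini-Hochberg adjustment at 0.05, in 8 comparisons, and 27 pairs of arrays were compared by fold. The script was tested on simulated data. Slc3a1 had 1 missing value and was not tested. With 1 array per condition, the number of arrays limits the precision, and p-values measure only how evenly a difference runs through the arrays.

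The carrier genes and all gene lists were chosen with earlier results of these data known. Values are given for called carriers, for the 12 with the largest range, for carriers of known role in blood or dividing cells, and for the extremes of each pair of arrays. The lists hold mitochondrial carriers, other amino acid and peptide transporters, the amino acid response, mTORC1 sensing, glutathione synthesis and lineage markers. Alternatives were other normalizations (normexp with offset 50 on median spot and background intensities, since no mean signal was in the files used, then quantile, and quantile alone), other filters, all probes, outlier spots kept, the series matrix, slide as a block, other sets of arrays, each array left out and, chosen after seeing the data, dim values raised to their array's background limit in the counts by fold.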

Additional observations from a re-analysis of the deposited data

Results flagged for a closer look

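Of the 13 tested carrier genes whose Sca1-low minus Sca1-high values did not share 1 sign in all treatments, 2 had measured values at least 2-fold each way, with the higher side well above background. For Slc6a13, Sca1-low minus Sca1-high was 1.64 under EPO and -1.30 under IL-3/GM-CSF. For Slc7a2 (CAT2), a carrier of basic amino acids, it was -1.64 under EPO and 1.66 under the combined treatment, which as bounds are at least 1.19-fold lower and at least 1.66-fold higher. Slc7a2 was well above background on 2 arrays only, EPO Sca1-high and combined Sca1-low. With 1 array per condition these differences between treatments were not tested.

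Another 10 carrier genes were left out of the tests because they were well above background on 1 treated array alone. Their values there follow, and the background limit differs between arrays. Slc1a2 read -2.73, and Slc7a12 -1.54, in EPO Sca1-low cells. Slc6a21 read -1.72 in EPO Sca1-high cells and Slc6a18 -2.61 on EPO day 6. In IL-3/GM-CSF Sca1-low cells Slc7a13 read -3.97, Slc7a15 -1.20 and Slc36a4 -0.16, and in Sca1-high cells of that arm Slc3a1 read -4.87. Slc3a1 read higher, -4.00, in EPO Sca1-low cells, where it was not well above background. The background limit was -6.09 in IL-3/GM-CSF Sca1-high cells and -4.62 in EPO Sca1-low cells. In combined Sca1-low cells Slc1a3 read -2.88 and Slc7a3 -3.99. The other probes of Slc1a2, Slc6a18, Slc7a15 and Slc36a4 were not well above background on any array.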

How the results depend on the processing

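With 1 array per condition, no fit has replicates, and the tests rest on 2 or 4 residual degrees of freedom. Between the Sca1 fractions, 5 carrier genes were called as reported, 0 with all 10 arrays in the model and 3 with no filter on dim probes, and leaving out each array in turn gave 0 to 8. Leaving out either array of a pair gives the same fit. Slc38a5 stayed called in 10 of 13 alternatives, Slc6a20a in 11 of 14 and Slc43a1 in 9 of 14. Slc6a4 stayed called in 6 of 13 and Slc36a3 in 4 of 13. All kept their direction, which most of these runs could not have turned. These tallies count each left-out pair as 2 runs, and the series matrix run repeats the reported values. The number of distinct runs that kept a call is thus lower. The difference of Slc38a5 ran from 3.23, with normexp and quantile normalization, to 7.08. Leaving out each array gave 0 to 1 called gene for EPO minus IL-3/GM-CSF and 0 to 2 for day 6 minus day 3, against 0 as reported. It gave 0 throughout for combined minus EPO, combined minus IL-3/GM-CSF and each treatment minus untreated. With slide as a block 3 genes were called for combined minus EPO, 5 for EPO minus untreated, 1 for IL-3/GM-CSF minus untreated and 1 for day 6 minus day 3, with 865, 1041, 293 and 655 genes called in all. Slide largely went along with treatment and day, so that fit cannot cleanly separate them. Its combined minus EPO values for the called genes equal those of the single pair of day 6 arrays. It gave Slc38a5 an EPO minus untreated value of 15.66, beyond any difference between 2 arrays. Over 27 pairs of arrays, 247 differences were at least 2-fold, and 134 when genes had to be well above background on all 10 arrays, which leaves 25 genes. With dim values at their background limit, a setting chosen after seeing the data, there were 231. Other scaling moved the median of all genes by up to 0.21 between 2 arrays, and by over 0.1 in 14 of 27 pairs. No paired analysis was possible because every condition carries only replicate number 1; the Sca1 comparison is paired by treatment instead.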
